A study of Homo sapiens with 12 samples.

Results

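The 10 long noncoding RNAs described here are MCPH1-AS1, NEAT1, MALAT1, PCAT1, PCGEM1, PCA3, DRAIC, PVT1, LINC-PINT and MIR22HG. They were picked by symbol from the 58037 genes of the count table, and they were chosen by a rule that used the difference between DOX and vehicle in these same samples. The values for that difference are therefore a description, with no test. RNA was sequenced from 12 samples of 2 human prostate cancer lines, DU-145 and LNCaP-AI, both carrying an inducible shRNA against MUC1 (tet-MUC1shRNA in pLKO-tet-puro, selected with puromycin). The labels give phenol red-free medium with charcoal-stripped serum for both lines, whereas the study's methods describe heat-inactivated serum for DU-145 cells, so the medium of DU-145 cells is uncertain. In each line 3 samples were treated with vehicle and 3 with 500 ng/ml doxycycline (DOX), which switches the shRNA on, for 7 days. The sample labels call these groups shCTL and shMUC1. LNCaP-AI cells were derived from C4-2B cells by long culture without androgens, and each line stands for a single cell culture model. Since a control shRNA line given DOX is not part of the comparison, what DOX does by itself cannot be told apart from MUC1 silencing.

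Long noncoding RNAs are transcripts that are not translated, and many act in the nucleus. NEAT1 is the scaffold of paraspeckles, nuclear bodies built with RNA-binding proteins such as NONO and SFPQ, and its neighbour MALAT1 is an abundant RNA of nuclear speckles. PCAT1, PCGEM1, PCA3 and DRAIC were described in prostate cancer, and PCA3 is measured in urine as a marker of that disease. PVT1 lies beside the MYC oncogene, while LINC-PINT and NEAT1 are known targets of the tumour suppressor p53. MIR22HG is the precursor RNA of the microRNA miR-22. DU-145 cells carry mutant p53, and LNCaP cells and their derivatives carry wild-type p53.

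Total counts ranged from 10423437 to 13544153 per sample in DU-145 cells and from 16569613 to 26961777 in LNCaP-AI cells. MUC1 itself had 74, 60 and 59 counts in the DU-145 vehicle samples and 3 in each DOX sample. In LNCaP-AI cells MUC1 had 36, 25 and 52 counts with vehicle and 8, 6 and 3 with DOX, so MUC1 was lower in every DOX sample of both lines. The luminal prostate markers KLK3, KLK2, FOLH1 and HOXB13 were at 0 counts in all DU-145 samples and were counted in every LNCaP-AI sample. Of the neuroendocrine markers reported here, INSM1 was at 0 in all samples and CHGA had 1 count in a single sample. ENO2 had at least 374 counts and SYP at least 11 in every sample, and NCAM1 had 33, 32 and 56 counts with vehicle and 2, 0 and 2 with DOX in DU-145 cells. In LNCaP-AI cells NCAM1 had 16, 16 and 8 counts with vehicle and 5, 4 and 8 with DOX.

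MUC1 followed treatment in the LNCaP-AI samples, but these samples also divided across treatment. They fell into a set of vehicle 1, DOX 2 and DOX 3 and a set of vehicle 2, vehicle 3 and DOX 1, and neither the labels nor the methods give a reason for it. The host RNA MIR205HG had 0 counts in the first 3 samples and 57, 85 and 60 in the others. PECAM1, an endothelial marker, had 0, 0 and 1 counts against 36, 72 and 62. DCN, a stromal marker, divided alike, with 0, 2 and 2 counts against 20, 20 and 18. VWF, also endothelial, did not divide this way, with 115, 137 and 132 counts against 52, 88 and 151. The stromal marker COL1A1 had at least 309 counts in every LNCaP-AI sample. Over the 7 stromal, endothelial and leukocyte markers the summed level ran from 22.5 to 29.5 CPM with vehicle and from 26.9 to 30.5 CPM with DOX, and CD3E was at 0 in all samples. Whether samples were exchanged or the cultures held more than one cell population was not tested. For the 7 of the 10 RNAs with a fitted difference in LNCaP-AI cells, the value is therefore also given within both sets, called sides.

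The sequences of 3 loci show what the counts can and cannot measure. MIR22HG was shown because its product, miR-22, is too short for these libraries and was not measured. The mature forms from the minus strand of chromosome 17 are given in RefSeq coordinates on GRCh38, with the seed (bases 2 to 8), which pairs with target mRNAs, in capitals.
hsa-miR-22-3p (chr17:1713914-1713935): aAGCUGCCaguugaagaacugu
hsa-miR-22-5p (chr17:1713952-1713973): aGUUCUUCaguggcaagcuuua
The seeds of the 2 arms differ, so they would pair with different sites.

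MALAT1 was counted in libraries made from polyadenylated RNA, although its mature 3′ end is made by cleavage and carries no added poly(A) tail. The genome encodes a run of A there, which pairs with upstream U-rich stretches and protects the end. The 113 bases around that run, read from the plus strand of chromosome 11 of GRCh38, hold a run of 13 A (capitals) after 3 runs of 5 or more T.
MALAT1 (chr11:65506018-65506130): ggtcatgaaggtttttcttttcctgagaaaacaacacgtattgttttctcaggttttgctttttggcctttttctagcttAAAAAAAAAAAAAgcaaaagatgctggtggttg
How much this encoded run contributed to the capture of MALAT1 was not tested.

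LINC-PINT is shown because its 5′ end lies against that of MKLN1, a gene on the opposite strand. The annotated genes overlap by 81 bases, of which 80 (capitals) fall in the 300-base RefSeq window around the LINC-PINT start, on the minus strand of GRCh38.
LINC-PINT (chr7:131109876-131110175): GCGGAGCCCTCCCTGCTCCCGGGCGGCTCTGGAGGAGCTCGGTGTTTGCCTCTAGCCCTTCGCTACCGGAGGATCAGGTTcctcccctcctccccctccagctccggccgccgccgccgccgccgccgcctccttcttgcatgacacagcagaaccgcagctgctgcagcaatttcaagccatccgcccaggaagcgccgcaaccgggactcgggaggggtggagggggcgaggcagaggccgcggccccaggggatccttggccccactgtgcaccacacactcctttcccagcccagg
RefSeq windows matched 6 of the 10 genes, with 11 windows in all. A search for the p53 half-site, a palindrome read on both strands, found it in 6.63% of the 35116 windows of all genes and in 0 of these 11. With so low a share and so few windows, the 0 cannot show a lack of p53 sites, and nothing is read from it.

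The levels spanned a wide range. Levels between genes are compared as CPM (counts relative to library size, TMM-normalized over all 12 samples) per kilobase of annotated exon, a rough scale because most of these genes have many transcripts. With vehicle, MALAT1 was highest in both lines, at 136 ± 30.0 in DU-145 and 133 ± 17.7 in LNCaP-AI cells (SD, n = 3), and NEAT1 followed at 7.13 ± 2.56 and 6.73 ± 1.50. PVT1 came next in both lines, at 0.807 ± 0.0721 and 0.638 ± 0.0318. Below PVT1 the order differed between the lines. In DU-145 cells LINC-PINT followed at 0.219 ± 0.0452, and MCPH1-AS1 (0.0681 ± 0.0140) and MIR22HG (0.0643 ± 0.0275) did not differ beyond their spread. In LNCaP-AI cells PCAT1 followed at 0.245 ± 0.0741, and MCPH1-AS1 (0.0621 ± 0.0126), LINC-PINT (0.0606 ± 0.00491) and DRAIC (0.0547 ± 0.0111) were within their spread of each other. The count of 10 in at least 3 of the 6 samples of a line, used as the minimum for a fitted difference, was reached by 4 genes in DU-145 cells (NEAT1, MALAT1, PVT1 and LINC-PINT) and by 7 in LNCaP-AI cells (the same 4 with MCPH1-AS1, PCAT1 and DRAIC). MIR22HG, PCA3 and PCGEM1 reached it in neither line.

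**Figure D1:**
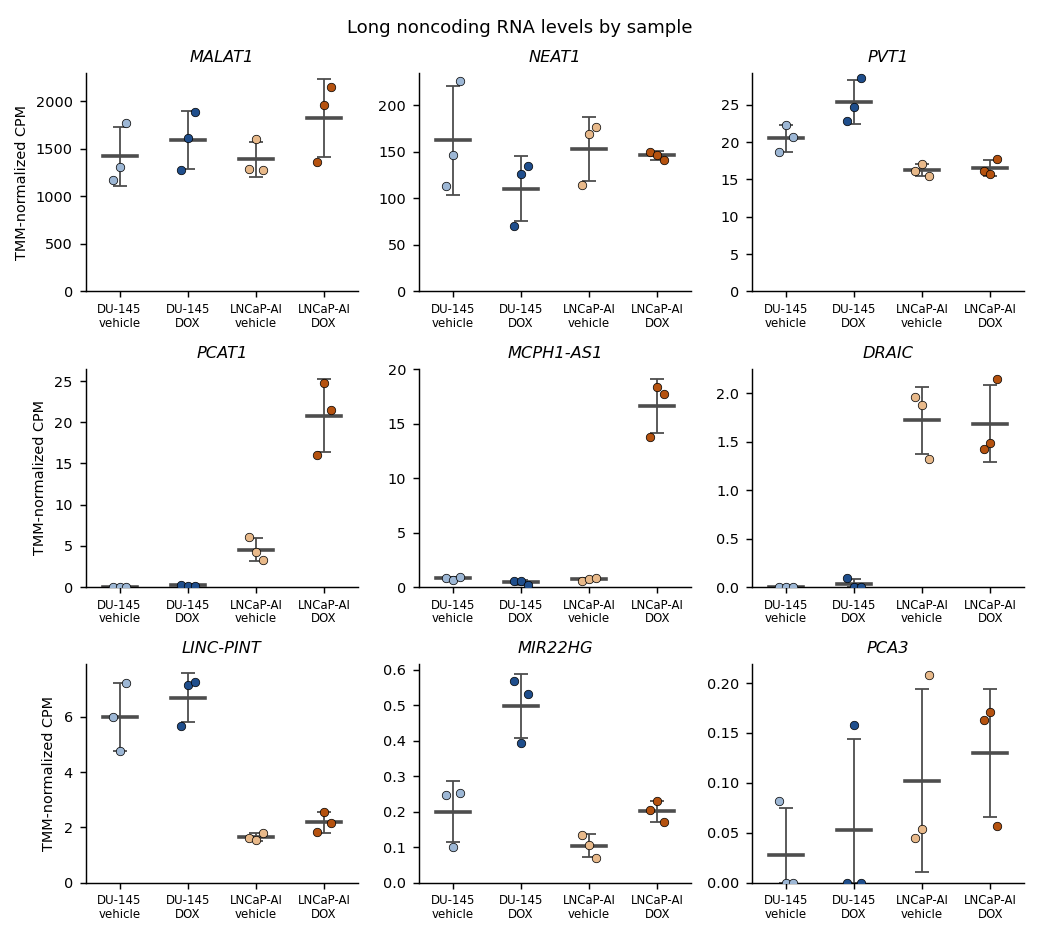
Levels of 9 of the long noncoding RNAs in TMM-normalized CPM (vertical axes, linear, each from 0), by line and treatment. Points are samples, horizontal lines are means and bars are SD (n = 3). MCPH1-AS1 lay between 13.8 and 18.4 CPM in the LNCaP-AI DOX samples and below 1 CPM in all other samples, and PCAT1 and DRAIC were at or near 0 in DU-145 cells. PCGEM1, at 0 in all samples, is not drawn.

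MCPH1-AS1 showed the widest separation between DOX and vehicle, in LNCaP-AI cells. The gene lies on chromosome 8, on the strand opposite to MCPH1, which encodes the chromosome condensation regulator microcephalin, and the annotated spans overlap by 31199 bases. In LNCaP-AI cells it had 13, 13 and 25 counts with vehicle and 339, 322 and 314 with DOX. Normalized, the level was 0.715 ± 0.145 CPM with vehicle and 16.6 ± 2.47 CPM with DOX (SD, n = 3). All 3 DOX samples lay far above all 3 vehicle samples, and the log2 difference was 4.50 (SE 0.227), the 5th highest among the 16030 genes fitted in that line. Within vehicle 1, DOX 2 and DOX 3 the log2 ratio of mean CPM was 4.96, and within vehicle 2, vehicle 3 and DOX 1 it was 4.14, so it had the same direction on both sides.

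In DU-145 cells MCPH1-AS1 had 10, 6 and 11 counts with vehicle and 6, 7 and 2 with DOX, too few for a fitted difference. The ratio of summed counts per library was 0.546 (exact 95% counting interval 0.270 to 1.06), which covers counting error only. The DOX samples were thus lower than the vehicle samples in DU-145 cells and higher in LNCaP-AI cells, although the interval in DU-145 cells includes equality. Whether the response differed between the lines was not tested, because the genes were chosen with these values known. MCPH1 was at 42.3 ± 2.90 CPM with vehicle and 48.4 ± 2.12 with DOX in LNCaP-AI cells, a log2 difference of 0.16 (SE 0.0897) that did not pass the edgeR test (adjusted p = 0.272). AGPAT5, which encodes an acyltransferase and starts 418 bases away, had a log2 difference of -0.09 (SE 0.163, edgeR adjusted p = 0.735). The libraries keep strand, but the strand setting of the counting is not given in the sources used here, so reads of MCPH1 and MCPH1-AS1 cannot be told apart with certainty.

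PCAT1, a prostate cancer RNA transcribed from the gene-poor region upstream of MYC, was the other RNA with a large difference. In LNCaP-AI cells it had 135, 79 and 96 counts with vehicle and 393, 434 and 382 with DOX. This corresponds to 4.53 ± 1.37 CPM with vehicle and 20.8 ± 4.44 CPM with DOX (SD, n = 3). The groups did not overlap, and the log2 difference was 2.17 (SE 0.289). Within the 2 sides of the sample division the log2 ratios were 1.94 and 2.08, close to each other. In DU-145 cells PCAT1 was at 0 counts in all vehicle samples and at 3, 2 and 2 counts with DOX, at or under the floor of 3 counts per library, so no fold is given.

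Of the genes around PCAT1, POU5F1B was also higher in each LNCaP-AI DOX sample than in each vehicle sample. POU5F1B, a retrogene related to the pluripotency factor OCT4 that lies within the PCAT1 span on the same strand, was at 0.666 ± 0.134 CPM with vehicle and 1.88 ± 0.858 with DOX. Its log2 difference of 1.45 (SE 0.417) did not pass the edgeR threshold (adjusted p = 0.0729), and its annotation shares bases with PCAT1, so reads there may be split between them. MYC, which encodes a growth-promoting transcription factor, was at 285 ± 16.6 CPM with vehicle and 277 ± 15.2 with DOX in LNCaP-AI cells (log2 difference -0.07, SE 0.0782, edgeR adjusted p = 0.612). LRATD2, which overlaps the other end of PCAT1 on the opposite strand, had a log2 difference of 0.04 (SE 0.0758, edgeR adjusted p = 0.731).

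The other prostate RNAs were low. DRAIC, on chromosome 15 from 69462921 to 69843120, had 44, 35 and 38 counts in the LNCaP-AI vehicle samples and 35, 26 and 38 with DOX. The levels of 1.72 ± 0.348 and 1.68 ± 0.398 CPM overlapped (log2 difference -0.06, SE 0.271), with within-side ratios of -0.11 and -0.16. In DU-145 cells DRAIC had 1 count in a single DOX sample. PCA3, on chromosome 9 from 76691980 to 76863307, had 1, 1 and 6 counts in the LNCaP-AI vehicle samples and 4, 3 and 1 with DOX, and at most 2 counts in any DU-145 sample. PCGEM1, on chromosome 2 from 192749845 to 192776899, was at 0 in all 12 samples. These counts place PCA3 and PCGEM1 at or near the floor in both lines, where a difference could not be detected at this depth.

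PRUNE2, the gene that holds PCA3 within it on the opposite strand and acts as a suppressor of prostate tumour growth, was well expressed in LNCaP-AI cells. The PRUNE2 level rose there with DOX, from 87.5 ± 21.2 to 202 ± 43.9 CPM (log2 difference 1.18, SE 0.238, edgeR adjusted p = 0.0300), and in DU-145 cells from 10.1 ± 1.09 to 15.7 ± 1.89 CPM (log2 difference 0.65, SE 0.130, edgeR adjusted p = 0.000349). The LNCaP-AI call of PRUNE2 was lost without DOX 2 (adjusted p = 0.126), DOX 3 (0.126), vehicle 2 (0.0687) or vehicle 3 (0.0654). In LNCaP-AI cells the sense gene PRUNE2 was thus counted in every sample while the antisense RNA PCA3 had at most 6 counts.

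NEAT1, on chromosome 11 from 65422774 to 65445540, had 1383, 1451 and 2700 counts in the DU-145 vehicle samples and 747, 1598 and 1518 with DOX. The level was 162 ± 58.3 CPM with vehicle and 110 ± 34.8 CPM with DOX (SD, n = 3). The groups overlapped, since DOX 2 and DOX 3 lay above vehicle 1, and the log2 difference was -0.55 (SE 0.199). Leaving out 1 sample at a time moved it between -0.78 and -0.24, nearest to 0 without vehicle 3 (-0.24) and without DOX 1 (-0.31). In LNCaP-AI cells NEAT1 had 2556, 3163 and 5084 counts with vehicle and 3693, 2564 and 2512 with DOX. The levels were 153 ± 34.2 and 146 ± 4.40 CPM, with a log2 difference of -0.09 (SE 0.162). Within the 2 sides the ratios had opposite signs, 0.34 with vehicle 1 and -0.20 with vehicle 2 and 3.

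MALAT1, on chromosome 11 from 65497640 to 65508073, was the most abundant of these RNAs and took between 0.112% and 0.226% of all counts in a sample. It had 14310, 12981 and 21095 counts in the DU-145 vehicle samples and 13491, 20499 and 21273 with DOX, or 1419 ± 313 and 1592 ± 307 CPM. The groups overlapped (log2 difference 0.17, SE 0.135). In LNCaP-AI cells the counts were 28772, 29938 and 36808 with vehicle and 33387, 34384 and 38132 with DOX, or 1388 ± 185 and 1825 ± 413 CPM. DOX 2 and DOX 3 were the highest and DOX 1 lay among the vehicle samples (log2 difference 0.37, SE 0.195). Within the sides the log2 ratio was 0.68 with vehicle 1 and -0.08 with vehicle 2 and 3. The mitochondrial share of the counts, a rough sign of RNA quality, was also highest in DOX 2 and DOX 3, at 8.73% and 9.52%, against 4.82% to 7.90% in the other LNCaP-AI samples, and its part in the MALAT1 level was not tested.

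The ratio of MALAT1 to NEAT1 counts within a sample does not depend on the scaling of the libraries. In DU-145 cells the ratio was 10.3, 8.95 and 7.81 with vehicle and 18.1, 12.8 and 14.0 with DOX. Every DOX sample had the higher ratio, although neither RNA alone separated the groups. Both RNAs were chosen with these values known, so this is a description with no test. Groups did not overlap for 57.3% of all genes fitted in DU-145 cells, and the share over pairs of genes was not computed. In LNCaP-AI cells the ratio was 11.3, 9.47 and 7.24 with vehicle and 9.04, 13.4 and 15.2 with DOX, and the groups overlapped.

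PVT1, which lies downstream of MYC on chromosome 8, had 227, 220 and 246 counts in the DU-145 vehicle samples and 242, 314 and 322 with DOX. The level was 20.5 ± 1.83 CPM with vehicle and 25.4 ± 2.91 CPM with DOX, and all 3 DOX samples lay above the vehicle samples, the lowest DOX sample at 22.8 CPM and the highest vehicle sample at 22.3 CPM. The log2 difference was 0.32 (SE 0.106). MYC rose in the same cells from 97.7 ± 3.96 to 147 ± 1.09 CPM (log2 difference 0.59, SE 0.0660, edgeR adjusted p = 4.54e-07). In LNCaP-AI cells PVT1 had 361, 319 and 445 counts with vehicle and 397, 275 and 315 with DOX, or 16.2 ± 0.810 and 16.6 ± 1.08 CPM. The groups overlapped, with a log2 difference of 0.00 (SE 0.110) and within-side ratios of 0.06 and -0.01.

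LINC-PINT, on chromosome 7 from 130791264 to 131110176, had 73, 47 and 86 counts in the DU-145 vehicle samples and 60, 91 and 82 with DOX, or 5.99 ± 1.23 and 6.70 ± 0.900 CPM. The groups overlapped (log2 difference 0.16, SE 0.176). In LNCaP-AI cells the counts were 36, 29 and 52 with vehicle and 45, 45 and 38 with DOX, or 1.65 ± 0.134 and 2.18 ± 0.371 CPM. All 3 DOX samples were above the vehicle samples by a narrow gap, 1.83 CPM against 1.81 CPM, and the log2 difference was 0.37 (SE 0.205). The within-side ratios were 0.55 and 0.13. MKLN1, the cytoskeletal gene that shares its 5′ end, rose in DU-145 cells from 102 ± 9.59 to 119 ± 3.50 CPM (log2 difference 0.23, SE 0.0741, edgeR adjusted p = 0.0127) and had a log2 difference of -0.04 in LNCaP-AI cells (SE 0.120, edgeR adjusted p = 0.822).

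MIR22HG, on chromosome 17 from 1711447 to 1717174, was near the floor in all samples. It had 3, 1 and 3 counts in the DU-145 vehicle samples and 6, 5 and 6 with DOX, a ratio of summed counts per library of 2.39 (exact 95% counting interval 0.941 to 6.81). In LNCaP-AI cells the counts were 3, 2 and 2 with vehicle and 5, 4 and 3 with DOX, a ratio of 2.00 (0.727 to 6.01). The DOX samples were higher in both lines, and both counting intervals include equality. WDR81, whose span overlaps that of MIR22HG by 652 bases on the opposite strand, was at 5.09 CPM with vehicle and 5.66 CPM with DOX in LNCaP-AI cells (edgeR adjusted p = 0.675).

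**Figure D2:**
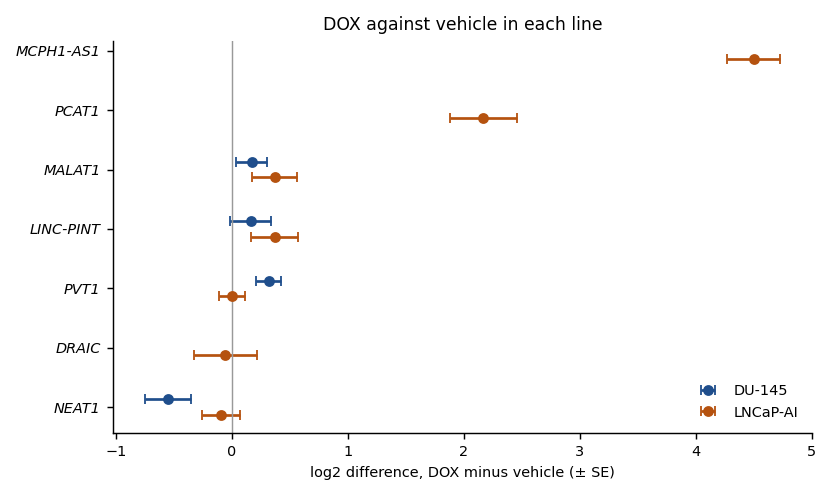
Fitted log2 difference between DOX and vehicle (horizontal axis, positive where higher with DOX) with its standard error, for the genes that reached the count minimum in DU-145 (blue) and LNCaP-AI (orange) cells. MCPH1-AS1 (4.50) and PCAT1 (2.17) stand apart in LNCaP-AI cells, and the other values lie between -0.55 and 0.37.

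Of the fitted RNAs, 2 of 4 in DU-145 cells (NEAT1 and PVT1) and 2 of 7 in LNCaP-AI cells (MCPH1-AS1 and PCAT1) were past an adjusted p of 0.05 in edgeR's quasi-likelihood test. Among all genes fitted, 51.5% of 13644 were past it in DU-145 cells and 12.7% of 16030 in LNCaP-AI cells, and nothing is read from these counts because the difference between DOX and vehicle chose the genes. In LNCaP-AI cells neither gene was past the threshold without DOX 2 or without DOX 3. In DU-145 cells NEAT1 was not past it in DESeq2, in the fit of all 12 samples, or without DOX 1, DOX 2 or vehicle 3. PVT1 was not past it in the fit of all 12 samples, or without DOX 3 or vehicle 1. Groups that did not overlap were found for 1 of the 4 genes in DU-145 cells, where 57.3% of all fitted genes did not overlap, and for 3 of the 7 in LNCaP-AI cells, where the share was 38.1%.

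**Figure D3:**
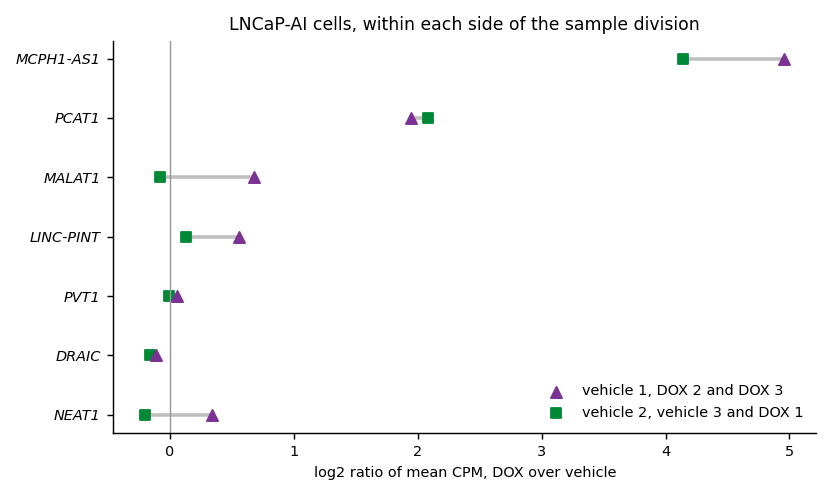
Log2 ratio of mean CPM between DOX and vehicle (horizontal axis) in LNCaP-AI cells, within vehicle 1, DOX 2 and DOX 3 (triangles) and within vehicle 2, vehicle 3 and DOX 1 (squares). MCPH1-AS1 and PCAT1 were higher with DOX on both sides, while MALAT1 (0.68 and -0.08) and NEAT1 (0.34 and -0.20) changed sign. There is no error bar because each side holds 3 samples of mixed treatment.

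The rule that chose the genes did not use the comparison of the lines, so that comparison was tested. The genes were still chosen with earlier results of these data known, and both line comparisons use samples that the rule used. With DOX, a line difference also carries each line's own difference between DOX and vehicle, which is a description only. Single cultures of each line are compared, not kinds of tumour, and the 2 comparisons (with vehicle, and with DOX) use different samples. LINC-PINT was lower in LNCaP-AI than in DU-145 cells, at 1.65 ± 0.134 against 5.99 ± 1.23 CPM with vehicle. The log2 difference was -1.89 (SE 0.227, edgeR adjusted p = 0.000313) with vehicle and -1.62 (SE 0.203, edgeR adjusted p = 0.000440) with DOX. No LNCaP-AI sample reached the level of any DU-145 sample, with 2.57 CPM the highest in one line and 4.76 CPM the lowest in the other. MKLN1, on the other side of the window printed above, was at 109 ± 11.1 CPM in LNCaP-AI and 102 ± 9.59 CPM in DU-145 cells with vehicle, and did not pass the test (log2 difference 0.06, SE 0.114, edgeR adjusted p = 0.657). With DOX it did not pass either (log2 difference -0.15, SE 0.0836, edgeR adjusted p = 0.150). Among all genes tested, 65.1% of 15628 passed with vehicle and 74.1% of 15485 with DOX, so a difference between the lines was common.

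PVT1 was also lower in LNCaP-AI cells, at 16.2 ± 0.810 against 20.5 ± 1.83 CPM with vehicle (log2 difference -0.38, SE 0.124, edgeR adjusted p = 0.0302). With DOX the log2 difference was -0.62 (SE 0.114, edgeR adjusted p = 0.00261). The groups did not overlap in either comparison. The vehicle result was not robust: over its 14 alternatives the adjusted p ran from 0.0168 to 0.305 and 7 were past the threshold, and it was lost without DU-145 vehicle 2 (0.0717) or 3 (0.0641) and without LNCaP-AI vehicle 2 (0.0846) or 3 (0.151). MYC, in contrast, was higher in LNCaP-AI cells with vehicle (log2 difference 1.50, SE 0.0889, edgeR adjusted p = 1.65e-05) and with DOX (0.91, SE 0.0654, edgeR adjusted p = 3.95e-05).

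NEAT1 and MALAT1 did not pass the test between the lines. With vehicle the log2 difference was -0.12 for NEAT1 (SE 0.277, edgeR adjusted p = 0.714), which turned to 0.031 with no filter on low counts. For MALAT1 it was -0.07 (SE 0.176, edgeR adjusted p = 0.739), which turned to 0.023 with upper-quartile scaling and 0.075 with no filter. With DOX the values were 0.40 for NEAT1 (SE 0.232, edgeR adjusted p = 0.155) and 0.19 for MALAT1 (SE 0.208, edgeR adjusted p = 0.423). Without LNCaP-AI DOX 1 both passed, at 0.48 (adjusted p = 0.000646) and 0.47 (adjusted p = 8.83e-05). MCPH1-AS1 did not pass the test in the vehicle samples either, with a log2 difference of -0.17 (SE 0.307, edgeR adjusted p = 0.691).

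PCAT1 and DRAIC reached the count minimum only through LNCaP-AI cells, so no test is given for them between the lines. With vehicle PCAT1 was at least 17.0-fold higher and DRAIC at least 6.43-fold higher in LNCaP-AI cells, against the floor of 3 counts per library in DU-145 cells. With DOX PCAT1 had 393, 434 and 382 counts in LNCaP-AI cells and 3, 2 and 2 in DU-145 cells. The DU-145 counts were at or under the floor, so no fold is given. In these cultures PCAT1 and DRAIC were thus above the floor only in LNCaP-AI cells, where KLK3, KLK2, FOLH1 and HOXB13 were counted. In bulk samples, fewer cells that express an RNA and less RNA per cell cannot be told apart.

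**Figure D4:**
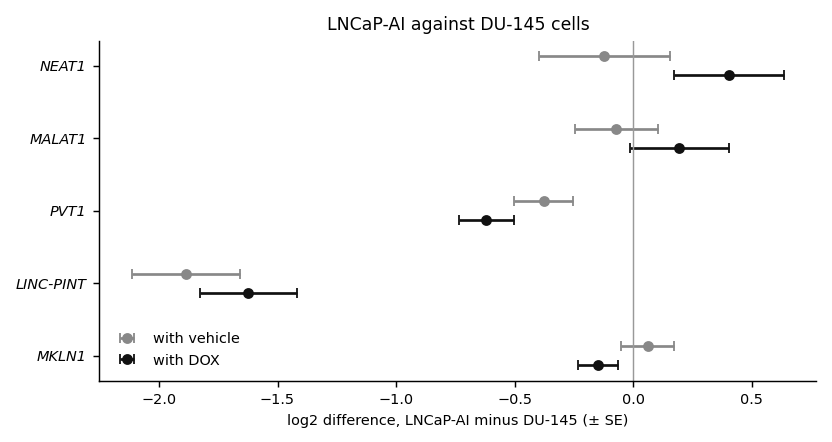
Log2 difference between LNCaP-AI and DU-145 cells (horizontal axis, negative where lower in LNCaP-AI cells) with its standard error, with vehicle (grey) and with DOX (black). LINC-PINT lay at -1.89 and -1.62, while MKLN1, which shares its 5′ end, lay at 0.06 and -0.15.

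Other RNAs linked to p53 gave a comparison outside the 10 genes. This list and those below were also chosen with earlier results of these data known. Their shares beside those of all genes are therefore not independent of these data. Of 12 such lncRNAs in the table, 4 were tested in DU-145 cells and 7 in LNCaP-AI cells. PINCR reached the count minimum in LNCaP-AI cells only through the DOX samples, which favours a difference, so it is given without a test. Of the other 6, 2 rose and 1 fell, where 7.22% of all genes tested rose and 5.52% fell. PINCR, a p53-induced RNA, had 6, 5 and 8 counts with vehicle and 26, 22 and 17 with DOX. PURPL, a p53-regulated RNA that restrains basal p53 levels, rose from 1.23 to 4.16 CPM (log2 difference 1.72, SE 0.344, edgeR adjusted p = 0.0295) and TP53TG1, named as a p53 target gene, from 7.23 to 13.9 CPM (0.91, SE 0.175, edgeR adjusted p = 0.0265). TUG1 fell in LNCaP-AI cells (-0.37, SE 0.0867, edgeR adjusted p = 0.0438), a call lost with upper-quartile scaling and on leaving out any sample except vehicle 3, and was the only one of the 4 tested to pass in DU-145 cells, where it fell from 164 to 91.8 CPM (-0.83, SE 0.0775, edgeR adjusted p = 4.68e-08). The medians of the log2 difference were 0.18 over these 6 in LNCaP-AI and -0.52 over the 4 in DU-145 cells, against -0.05 and 0.00 over all genes tested.

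Protein-coding targets of p53 were tested beside them. In LNCaP-AI cells 14 of 29 rose and 0 fell (median 0.54), and in DU-145 cells 10 of 27 rose and 6 fell (median 0.03), where 26.3% of all genes rose and 25.3% fell. CDKN1A, the inhibitor of cyclin-dependent kinases p21, rose in LNCaP-AI cells from 69.3 to 808 CPM (log2 difference 3.51, SE 0.133, edgeR adjusted p = 0.00233) and GDF15, a stress-induced cytokine, from 20.7 to 183 CPM (3.11, SE 0.211, edgeR adjusted p = 0.0109). CDKN1A also rose in DU-145 cells, by 2.07 (SE 0.0742, edgeR adjusted p = 1.44e-13), as did SESN2, a stress-induced inhibitor of mTORC1 signalling (1.82, SE 0.110, edgeR adjusted p = 1.57e-10). TP53INP1, which promotes cell death and autophagy, fell in DU-145 cells (-2.27, SE 0.218, edgeR adjusted p = 7.41e-08). DESeq2 gave 17 higher and 0 lower of these genes in LNCaP-AI cells.

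Among other prostate lncRNAs, 1 of 11 rose and 1 fell in LNCaP-AI cells, leaving aside LINC00844, and 2 of 9 rose and 2 fell in DU-145 cells. LINC00844 had 5, 3 and 2 counts with vehicle and 18, 11 and 11 with DOX in LNCaP-AI cells, and reached the count minimum only through the DOX samples, so no test is given. PCAT6 rose in LNCaP-AI cells from 1.62 to 4.42 CPM (log2 difference 1.42, SE 0.246, edgeR adjusted p = 0.0217). TMPO-AS1, antisense to the nuclear lamina gene TMPO, fell in both lines, by 1.32 in LNCaP-AI cells (SE 0.166, edgeR adjusted p = 0.0129) and by 0.59 in DU-145 cells (SE 0.148, edgeR adjusted p = 0.00269). SOCS2-AS1 (0.84, SE 0.186, edgeR adjusted p = 0.000966) and DANCR (0.60, SE 0.0913, edgeR adjusted p = 2.07e-05) rose in DU-145 cells. Of all genes annotated as lncRNA and tested, 9.45% rose and 2.02% fell in LNCaP-AI cells, while 10.7% rose and 20.4% fell in DU-145 cells.

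Host RNAs of other microRNAs were tested in the same way. In DU-145 cells MIR100HG alone of 8 passed, at 0.76 (SE 0.216, edgeR adjusted p = 0.00650), where 51.5% of all genes tested passed. In LNCaP-AI cells 0 of 10 passed in edgeR, where 12.7% of all genes tested passed. There 3 of the 10 had an unadjusted p under 0.05 in edgeR, and 2 rose in DESeq2. MIR100HG had 0 counts in vehicle 1, DOX 2 and DOX 3 and 100, 145 and 97 in the other LNCaP-AI samples, the same division as MIR205HG.

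Transcripts of 11 proteins that build paraspeckles with NEAT1 were tested in both lines. Of the 11, 9 fell in DU-145 cells, where 25.3% of all genes fell, and 6 in LNCaP-AI cells, where 5.52% fell, and none of them rose by the edgeR test in either line, with the same 0 in DESeq2. Medians of the log2 difference were -0.33 and -0.53. SFPQ, a core paraspeckle protein, fell from 645 to 494 CPM in DU-145 cells (-0.38, SE 0.0683, edgeR adjusted p = 0.000128) and from 688 to 456 CPM in LNCaP-AI cells (-0.62, SE 0.0908, edgeR adjusted p = 0.0159). TARDBP, which encodes TDP-43, fell by 0.65 in DU-145 cells (SE 0.0749, edgeR adjusted p = 7.14e-07) and by 0.53 in LNCaP-AI cells (SE 0.101, edgeR adjusted p = 0.0262). NONO, the partner of SFPQ, fell in DU-145 cells (-0.28, SE 0.0711, edgeR adjusted p = 0.00256) and had a log2 difference of -0.08 in LNCaP-AI cells (SE 0.0829, edgeR adjusted p = 0.579).

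Most calls of these lists in LNCaP-AI cells were lost when a sample was left out. PURPL no longer passed on leaving out any one of the vehicle samples, TP53TG1 without vehicle 2 or vehicle 3, and PCAT6 without vehicle 2. Without DOX 2 or without DOX 3, none of the lncRNAs linked to p53 or to prostate cancer and none of the paraspeckle proteins passed in edgeR, while 3 and 3, 2 and 3, and 7 and 7 of them had an unadjusted p under 0.05. Of the p53 targets only CDKN1A passed in each case, with 15 and 15 at an unadjusted p under 0.05. In those fits 27 and 28 of the 29 p53 targets had a log2 difference above 0 and all 11 paraspeckle proteins had one below 0.

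**Figure D5:**
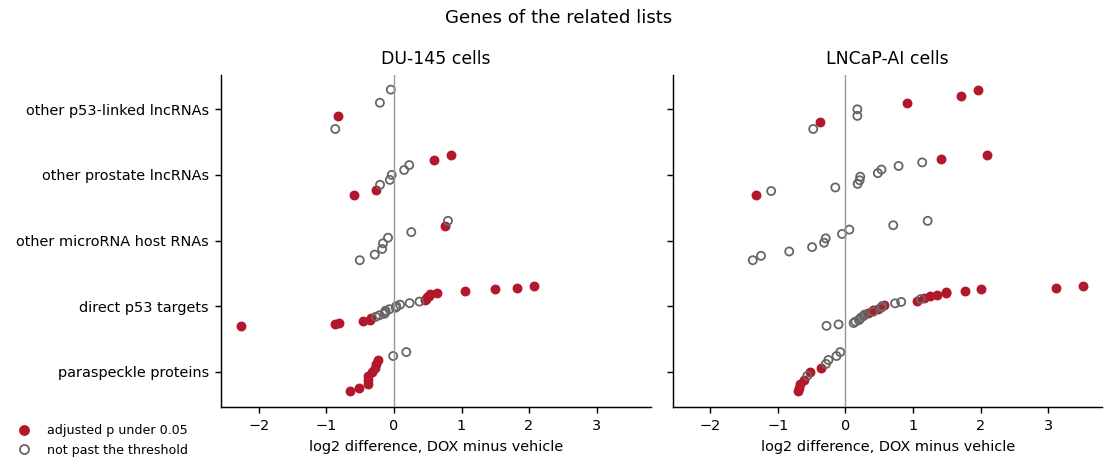
Log2 difference between DOX and vehicle (horizontal axes) for each tested gene of 5 related lists in DU-145 (left) and LNCaP-AI (right) cells. Each point is a gene, filled where the edgeR adjusted p was under 0.05, PINCR and LINC00844 included. PINCR and LINC00844 reached the count minimum in LNCaP-AI cells only through the DOX samples, so nothing is read from their filled points. Of the p53 targets 14 of 29 were filled to the right of 0 in LNCaP-AI cells and 0 to the left, and in DU-145 cells 10 lay to the right and 6 to the left.

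The genes most like each RNA were ranked by the Pearson correlation of log2 CPM. For MCPH1-AS1 over the 6 LNCaP-AI samples these were BMF (r = 1.00), a pro-apoptotic BCL-2 family gene, and EDEM2 (r = 1.00), and for PCAT1 COLCA1 (r = 0.999) and CACNA1I (r = 0.999). Correlations of that height were common there, since 1% of the named genes exceeded 0.985 with MCPH1-AS1 and 0.991 with PCAT1. For DRAIC they were GTF2H2B (r = 0.979) and PAOX (r = 0.969). Over the 12 samples centred within each line, NEAT1 was most like GOLGA8B (r = 0.942) and SLC25A27 (r = 0.930), MALAT1 most like VWDE (r = 0.888) and DCAF8 (r = 0.884), PVT1 most like SLC38A4-AS1 (r = 0.970) and CYC1 (r = 0.928), and LINC-PINT most like PTOV1 (r = 0.906) and TXK (r = 0.865). These are descriptions over samples that share treatment and sequencing depth, picked from all genes tested, and carry no p.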

How the data were processed

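RNA-seq was measured in 12 samples, 3 per group. The authors isolated total RNA with Trizol, prepared TruSeq Stranded mRNA libraries and deposited gene counts that were not normalized. Per the labels, CASAVA 1.8.2, STAR 2.7.0 and DESeq2 1.24.0 were used with build GRCh38.p7, and the counting tool and its strand setting are not given in the sources used here. The labels say that cells were cultured in triplicate. If the samples of a group were not separate cultures, p-values measure only technical spread. The lowest chi-square per degree of freedom between replicates was 2.53, so no pair agreed within counting noise.

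Identifiers were matched to symbols by Ensembl ID, and positions come from GENCODE release 44 on GRCh38. A gene entered a fit when 3 or more of its samples had 10 counts or more, and was compared with edgeR 4.0.16 (TMM, glmQLFit and glmQLFTest; R 4.3.3), with Benjamini-Hochberg adjustment over all genes tested and a threshold of 0.05. Standard errors were derived from the log2 difference and F. CPM values were TMM-normalized over all 12 samples. Intervals of ratios of low counts are exact (Clopper-Pearson) and, like the floor of 3 counts, cover counting error only. Depth limits RNAs near that floor. The steps were tested on simulated data. Promoter windows and microRNAs were taken from RefSeq tables on GRCh38, and the MALAT1 stretch from the GRCh38 genome.

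The 10 genes and the lists beside them were chosen with earlier results of these data known. The genes named are the 10, their overlapping or nearest genes, MUC1, at most 4 genes per list and comparison with the smallest adjusted p, and the 2 most alike genes of each (log2 of CPM plus 0.5). MIR205HG, NONO and the cell markers were named after their values were seen. The alternatives were DESeq2 1.42.0, its size factors, upper-quartile scaling, no filter, a filter of 1 CPM in 3 samples, all 12 samples in one fit, library sizes without MALAT1 and NEAT1, a replicate block, leaving out each sample, and values within the sides of the LNCaP-AI division. Some genes that meet the rule are left out here.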

Additional observations from a re-analysis of the deposited data

How the results depend on the processing

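Line contrasts kept their counts of called genes within 1.5 times under all alternatives. In DU-145 cells the count of 7033 genes fell to 4083 with all 12 samples in one fit, and ran from 5973 to 7115 leaving out 1 sample. In LNCaP-AI cells the count of 2043 was 3517 in DESeq2 and 3933 with all 12 samples, and ran from 1 (without DOX 2 or without DOX 3) to 3538 (without DOX 1). It was 1096 without vehicle 2 and 994 without vehicle 3. The causes were not tested. Of the 10 RNAs, the number past the threshold in DU-145 cells was 2, and it ran from 1 to 2 leaving out 1 sample. It was 1 in DESeq2 and 1 with all 12 samples, where it was PCAT1. PCAT1 entered that fit only through its LNCaP-AI counts. In DU-145 cells it had 0 counts in each vehicle sample and 3, 2 and 2 with DOX, so nothing is read from that call. In LNCaP-AI cells it was 2 and ran from 0 to 3 leaving out 1 sample.

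Replicate numbers were tried as a block, although same-numbered samples did not deviate together (correlations from -0.0912 to 0.127 in DU-145 and from -0.940 to -0.812 in LNCaP-AI cells). With the replicate block edgeR called 6924 genes in DU-145 cells and 0 in LNCaP-AI cells, where 2909 had an unadjusted p under 0.05 and the calls of PRUNE2 and of all gene lists were thus lost, and 9378 and 11016 between the lines with vehicle and with DOX. Of the 10 RNAs, 3 were called with the block in DU-145 cells and 0 in LNCaP-AI cells, with 2 at an unadjusted p under 0.05. With the block PVT1 no longer passed between the lines with vehicle (adjusted p = 0.0599), and MALAT1 passed with DOX (adjusted p = 0.0387).

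Between the lines with vehicle, NEAT1 turned to 0.031 with no filter, and MALAT1 to 0.023 with upper-quartile scaling and 0.075 with no filter. Leaving out 1 sample, NEAT1 ran from -0.36 to 0.17 (0.125 without LNCaP-AI vehicle 1), MALAT1 from -0.23 to 0.085 (0.055 and 0.058 without LNCaP-AI vehicle 1 or 3) and MCPH1-AS1 from -0.34 to 0.042. Upper-quartile scaling moved the median log2 difference of all genes between the lines with DOX from 0.09 to 0.19. LINC-PINT kept its direction and call in all 14 alternatives of both line comparisons. Depth left PCGEM1, PCA3 and MIR22HG unresolved.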
